A study of Mus musculus with 40 samples.

Results

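The genes described here encode the proteins of the mitochondrial ribosome in CD11b+ cells of the mouse brain and of experimental gliomas. They were taken by name, as the protein-coding genes called Mrpl or Mrps followed by a number and at most 1 letter, and kept where their mean over a table was at least 1 RPKM (read counts divided by exonic length and by library total). Of 21906 protein-coding genes in the tables, 78 had such a name and 77 passed the filter. The exception was Mrpl53, at a mean of 0.0328 RPKM in the GL261 table of 21 days post implantation (DPI), 0.0789 RPKM at 28 DPI and 0.00895 RPKM in the U87-MG table. Its exons share a strand and a locus on chromosome 6 with Gm42688, another protein-coding gene, and the part of this overlap in its low value was not tested.

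The mitochondrial ribosome translates the few messenger RNAs made from mitochondrial DNA, which encode membrane subunits of the respiratory chain and of ATP synthase. Its small subunit decodes the message and its large subunit joins the amino acids, and all of its proteins are encoded in the nucleus and imported. Some of them have counterparts in the bacterial ribosome, whereas others are found only in mitochondria. In macrophages and microglia, respiratory chain capacity is known to shift with the state of activation.

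RNA was sequenced from CD11b+ cells sorted from the brain hemispheres of male mice, and 35 of the 40 labelled samples were analysed here. The labels also name naïve nude mice and a sample 4 of anti-PD-1 and of the combination, for which no values were available. In the first experiment C57BL/6 mice carried murine GL261 glioma cells, marked with tdTomato and luciferase, in the striatum and received water (vehicle), the integrin-blocking peptide 7aaRGD or the control peptide 7aaRAE from osmotic pumps, and hemispheres of naïve mice without a tumor were included. Each group held 3 samples pooled from 2 adult animals at 21 DPI. In the second experiment single GL261-bearing mice were sampled at 28 DPI after vehicle (n = 4), 7aaRGD (n = 4), anti-PD-1 antibody (n = 3) or 7aaRGD with anti-PD-1 (the combination, n = 3), with control IgG in the arms without the antibody. In the third, athymic nude mice carried human U87-MG glioblastoma cells marked with RFP and received vehicle, 7aaRGD or 7aaRAE, with 3 samples pooled from 2 animals per group at 21 DPI. The sample labels place the 28 DPI mice on the nude background and the study's methods on C57BL/6. H2-Ea-ps, an MHC class II gene known to be silent in C57BL/6 mice, lay at 0.0976 RPKM or less at 28 DPI, at 0.0554 RPKM or less in the GL261 table of 21 DPI, and between 22.5 and 374 RPKM in the U87-MG table.

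Read depth is unknown, because the tables hold RPKM values to which a constant of 2 had been added and 3.13% to 8.78% of the values of a sample fall below that constant. Itgam, which encodes CD11b, lay between 51.2 and 195 RPKM in all samples. In both GL261 tables the scatter of samples around their group means spanned 1 dimension fewer than the design allows on the log2(RPKM + 1) scale, 7 of 8 at 21 DPI and 9 of 10 at 28 DPI, so 1 component of the spread between samples is missing from the deposited values and the p-values rest on the rest of it. The p-values measure the spread between the samples of a group only. In bulk RNA, fewer cells of a type and less RNA per cell cannot be told apart.

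The 77 genes were expressed at low to moderate levels, and in much the same order in the 3 tables. The median gene stood at 7.29 RPKM in the GL261 table of 21 DPI, at 8.30 RPKM at 28 DPI and at 6.94 RPKM in the U87-MG table. Mrpl52, a large subunit protein found only in mitochondria, was the highest in every table, with means of 58.2, 50.5 and 38.1 RPKM, and Mrps21, a conserved small subunit protein, came second with 39.4, 39.7 and 28.7 RPKM. Mrpl54, Mrpl34 and Mrpl43 completed the highest 5 at 21 DPI in GL261 gliomas, Mrpl54, Mrpl2 and Mrpl12 at 28 DPI, and Mrpl43, Mrpl12 and Mrpl2 in U87-MG gliomas. At the low end, Mrps10 stood at 1.45, 2.11 and 1.28 RPKM and Mrps35 at 1.75, 2.04 and 1.63 RPKM. The third lowest was Mrps25 at 21 DPI in GL261 gliomas, Mrpl33 at 28 DPI and Mrpl1 in U87-MG gliomas. The order of the 77 means was alike between tables, with a Spearman rho across genes of 0.986 between the GL261 tables and of 0.965 and 0.964 between each of them and the U87-MG table. These are levels per length, and each table was normalized on its own.

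The level of a mitochondrial ribosomal protein gene followed its exonic length closely. The 77 genes had a median exonic length of 2533 bases, from 607 to 8631, against 4431 bases for the 9739 genes tested at 28 DPI. Across the 77 genes the Spearman rho between exonic length and mean RPKM was −0.83 in the GL261 table of 21 DPI, −0.81 at 28 DPI and −0.81 in the U87-MG table, whereas over all genes tested it was −0.25, −0.24 and −0.22. Genes are not independent replicates, and these values are given as a description. Multiplying the 28 DPI levels by exonic length, which gives each gene's share of the reads, reduced the ratio of the highest to the lowest gene from 24.7 to 16.2 and the SD of the log2 levels from 1.15 to 0.69. Exonic length here counts every exon of every annotated transcript, so that a gene with long rare transcripts is divided by more bases than its main transcript holds.

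**Figure D1:**
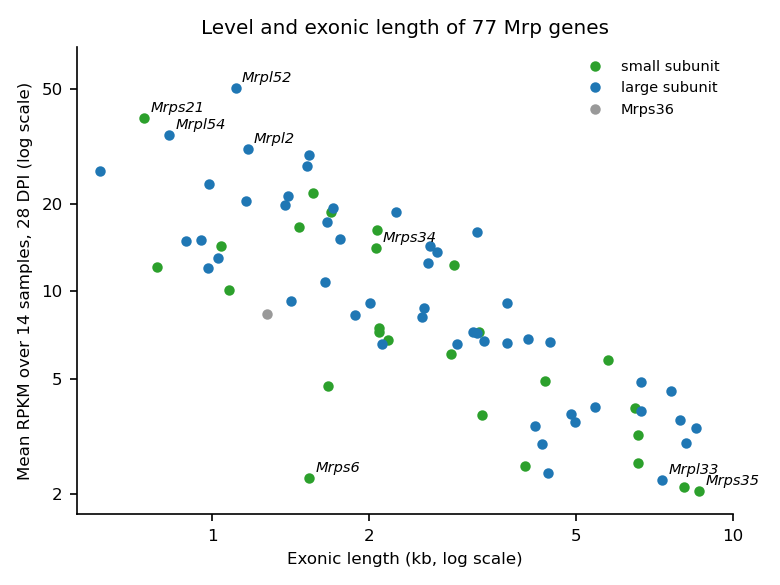
Mean RPKM over the 14 samples of 28 DPI against exonic length in kilobases for the 77 genes, both on log scales, with 1 point per gene and the colour showing the subunit. Levels fall from Mrpl52, Mrps21 and Mrpl54 among the short genes to Mrps35 among the long ones, and Mrps6 lies at 2.26 RPKM with an exonic length of 1533 bases.

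Of the 77 genes, 50 encode large subunit proteins (30 conserved, 20 found only in mitochondria) and 26 small subunit proteins (16 conserved, 10 found only in mitochondria). The remaining one, Mrps36, carries the name but is known as a component of the 2-oxoglutarate dehydrogenase complex. Conserved large subunit genes had the highest median at 28 DPI, 12.6 RPKM, and small subunit genes found only in mitochondria the lowest, 4.80 RPKM. Mrps6 (small subunit) overlaps Slc5a3 on the same strand, Mrps24 overlaps Urgcp and Mrps34 overlaps Nme3, and reads in shared exons could not be assigned to either gene of a pair.

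The start regions of these genes were searched for known motifs. RefSeq start regions of 300 bases (250 before and 50 after the transcript start, build GRCm38.p6) were found for 68 of the 77 genes, and 5 motifs were searched on both strands. CCGGAAG, the core that ETS factors such as GABPA bind, was present in 25 of the 68 (36.8%), against 22.5% of 7838 genes tested at 28 DPI and 9.93% of all 27025 genes with a start region. AANATGGC, the core known for YY1, occurred in 21 (30.9%) against 11.2% and 6.96%, and GCATGCG, from the NRF1 site, in 8 (11.8%) against 7.86% and 4.01%. GGGCGG, the SP1 box, was found in 34 of the 68, against 70.1% and 38.2%, and TATAAA in 5 (7.35%) against 8.19% and 15.7%. At least 1 of the ETS, YY1 and NRF1 motifs was present in 41 of the 68 (60.3%), against 36.1% of the tested and 18.8% of all genes. A match is a description of letters and not of binding.

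To show how these motifs lie around the start, 100 bases (60 before to 40 after it) are given for the 4 genes that fell most in the combination group, described below, among those with a motif in this window, and for Mrpl32, the first with the NRF1 letters. Capitals mark the motifs CCGGAAG, AANATGGC and GCATGCG or their reverse complements.
Mrpl57 (large subunit, chr14:57826179-57826278, + strand): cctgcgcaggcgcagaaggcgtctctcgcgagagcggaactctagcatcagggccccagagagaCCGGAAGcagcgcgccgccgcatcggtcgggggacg
Mrps26 (small subunit, chr2:130563697-130563796, + strand): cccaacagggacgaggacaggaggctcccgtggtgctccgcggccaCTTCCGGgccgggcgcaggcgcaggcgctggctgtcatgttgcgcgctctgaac
Mrpl27 (large subunit, chr11:94653731-94653830, + strand): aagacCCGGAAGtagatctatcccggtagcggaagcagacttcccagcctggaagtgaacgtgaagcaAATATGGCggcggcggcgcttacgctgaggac
Mrpl43 (large subunit, chr19:45006403-45006502, − strand): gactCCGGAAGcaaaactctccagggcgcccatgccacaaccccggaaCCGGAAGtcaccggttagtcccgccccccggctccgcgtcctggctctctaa
Mrpl32 (large subunit, chr13:14612998-14613097, − strand): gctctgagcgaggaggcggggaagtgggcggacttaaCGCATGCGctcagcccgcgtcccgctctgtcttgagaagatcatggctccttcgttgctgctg
Mrpl57, Mrps26 and Mrpl43 carry the ETS letters only, Mrpl43 at 2 places, and Mrpl27 carries them upstream of its start and the YY1 letters downstream of it. In Mrpl32 the capitals join a match and its reverse complement that overlap. Mrpl23, Mrpl2 and Mrps9 fell more in the combination group than the genes shown and hold none of these motifs in the same window.

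The comparison of naïve with vehicle mice asks how CD11b+ cells of the tumor-bearing hemisphere differ from those of the healthy brain. Mitochondrial ribosomal protein genes were lower in the naïve brain. Their summed level was 606, 622 and 604 RPKM in the 3 naïve samples and 918, 916 and 917 RPKM in the 3 vehicle samples, so that no sample of one group reached the other. In the limma test over all 9672 genes, 53 of the 77 were lower in naïve mice and 2 were higher at an adjusted p under 0.05. Among all genes tested, 35.9% were called lower and 46.7% higher. The median log2 fold change of the 77 genes was −0.40, beside 0.11 over all genes. Scaling by TMM factors moved the median of all genes to 0.01 and gave 63 lower and 2 higher calls among the 77. The shares of all genes called under this scaling are not given, so the 63 cannot be set against a background.

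The largest differences were in large subunit genes. Mrpl54 stood at 12.8, 11.3 and 10.7 RPKM in naïve mice and at 44.5, 43.4 and 44.7 RPKM in vehicle mice, a log2 fold change of −1.84 ± 0.07 (SE; limma adjusted p = 1.1e-07). Mrpl30 stood at 5.10, 4.62 and 5.16 RPKM against 17.6, 20.3 and 19.8 RPKM (−1.76 ± 0.07, limma adjusted p = 1.6e-07). In both genes every naïve sample lay below every vehicle sample, by a wide margin. Mrpl52 (−1.22), Mrpl33 (−1.06) and Mrpl27 (−1.03), a protein near the peptidyl transferase centre, followed with limma adjusted p-values of 1.7e-05 or less. Both genes called higher also encode large subunit proteins found only in mitochondria. Mrpl49 rose from 7.18, 7.74 and 8.40 RPKM in vehicle to 9.63, 10.4 and 11 RPKM in naïve mice (log2 fold change 0.37 ± 0.07, limma adjusted p = 0.0015), and Mrpl44 from a mean of 10.2 to 12.2 RPKM (0.24 ± 0.05, limma adjusted p = 0.0021). Neither gene's groups overlapped.

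By role, 25 of the 30 conserved large subunit genes were called lower (median −0.48), as were 11 of the 20 large subunit genes found only in mitochondria (median −0.24), 10 of the 16 conserved small subunit genes (median −0.36) and 6 of the 10 small subunit genes found only in mitochondria (median −0.24). The remaining call was Mrps36.

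Other lists of mitochondrial protein synthesis held more genes called higher than lower, as did all genes tested, of which 46.7% were called higher and 35.9% lower. Of 16 translation factors 9 were called higher in naïve mice and 1 lower (median 0.22). Among those called higher, Gatc, a subunit of the glutamyl-tRNA amidotransferase, was at 24.1 RPKM against 12.3 RPKM. Lrpprc, which stabilises mitochondrial messenger RNAs, was at 11.2 against 6.58 RPKM. Of 23 ribosome assembly genes 13 were called higher and 3 lower, and of 15 mitochondrial tRNA synthetases 9 and 4. Polrmt, the mitochondrial RNA polymerase, rose from 3.66 to 6.71 RPKM and Yy1 from 16.8 to 24.8 RPKM, whereas Ppargc1b, a coactivator of mitochondrial biogenesis, was at 0.490 RPKM in naïve and 3.01 RPKM in vehicle mice. With the length trend removed from each sample, as described further on, 8 translation factors were called higher and 3 lower, 10 assembly genes higher and 1 lower, and 6 tRNA synthetases in each direction. Among the 7 genes of mitochondrial DNA that were tested, 5 were called higher and none lower. The cytosolic ribosome and the respiratory chain moved with the mitochondrial ribosome, with 78 of 79 cytosolic ribosomal protein genes (median −1.17) and 71 of 77 nuclear respiratory chain genes (median −0.92) called lower, and 74 and 59 with the length trend removed. Of 5 mitochondrial ribosomal proteins under other names, Aurkaip1 (30.4 to 13.2 RPKM), Dap3 and Chchd1 were called lower, and Ptcd3 higher.

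The cell mixture differed between these groups. The summed level of 8 homeostatic microglia markers was 15638 to 16190 RPKM in naïve and 1294 to 1882 RPKM in vehicle mice, and that of 8 monocyte and macrophage markers was 54.6 to 57.6 RPKM against 2486 to 3256 RPKM. All 8 markers of each list were called, the first higher and the second lower in naïve mice, and none of them was near 0 in every sample. All 6 tested markers of cycling cells were called lower (29.8 to 32.1 RPKM in sum against 55.4 to 66.0 RPKM), and 4 of 6 tested neutrophil markers higher (269 to 404 RPKM against 56.2 to 181 RPKM). Their part in the lower ribosomal protein levels was not tested. Exonic length also moved with the comparison. Median log2 fold changes of the other genes tested went from −0.80 in genes up to 1000 bases long to 0.29 in those over 6000 bases, and the 77 genes lay below the others in 6 of 7 length bins. In the bin of 3000 to 4000 bases, for instance, the 9 mitochondrial ribosomal protein genes had a median of −0.57 and the 1499 others of 0.10. The exception was the bin of 1500 to 2000 bases, at −0.02 against −0.32. After a smooth length trend was removed from each sample, 49 of the 77 were called lower and 12 higher, beside 40.9% of all genes lower. The share of all genes called higher in that fit is not given.

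**Figure D2:**
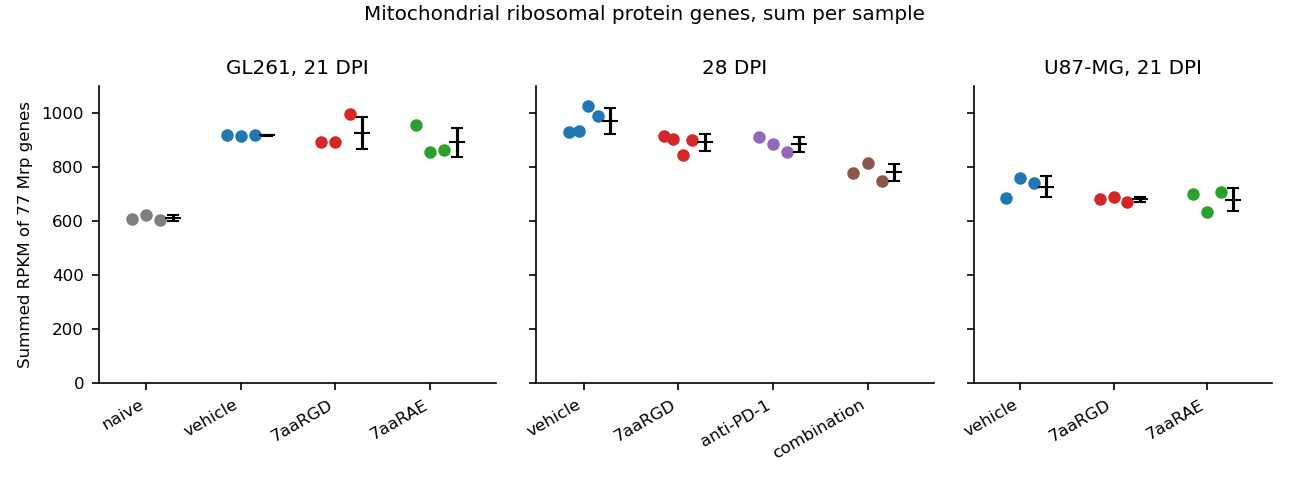
Summed RPKM of the 77 genes in each sample, by group, in the 3 tables. Points are samples and bars the mean and SD. Naïve samples lie at 604 to 622 RPKM, the other GL261 samples of 21 DPI at 857 to 996 RPKM, and the combination samples of 28 DPI at 749 to 813 RPKM, under every other sample of that table.

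The peptides left no detectable change in these genes at 21 DPI in GL261 gliomas. Summed levels were 894, 892 and 996 RPKM with 7aaRGD and 954, 857 and 863 RPKM with 7aaRAE, both spanning the 916 to 918 RPKM of vehicle. With limma, none of the 77 genes was called for 7aaRGD against vehicle, where 0.134% of all genes were called, nor for 7aaRAE against vehicle or 7aaRGD against 7aaRAE, where 0% of all genes were. At an unadjusted p under 0.05 there were 2, 4 and 3 genes, respectively, beside 1360, 628 and 566 of all 9672 genes. The median log2 fold changes were 0.01, −0.03 and 0.05. Both peptides were compared with the same vehicle samples. Mrps6, a conserved small subunit protein, had the lowest p in both peptide comparisons. It stood at 2.43, 1.48 and 2.41 RPKM in vehicle, at 2.92, 3.43 and 2.6 RPKM with 7aaRGD and at 3.13, 2.81 and 2.89 RPKM with 7aaRAE. The vehicle samples lay under all peptide samples, and the limma adjusted p-values were 0.26 and 0.72. Mrps15 and Mrpl39 followed for 7aaRGD (log2 fold changes 0.19 and 0.12), Mrps28 and Mrpl54 for 7aaRAE (−0.19 and −0.16), and Mrps5, Mrpl48 and Mrpl35 had the lowest p between the peptides (0.16, −0.11 and 0.16).

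At 28 DPI the 3 treatments were each compared with the same 4 vehicle samples, to learn whether the peptide, the checkpoint antibody or both alter the CD11b+ cells. The 77 genes were lowest with the combination. Summed levels were 930, 932, 1027 and 990 RPKM in vehicle, 915, 905, 844 and 898 RPKM with 7aaRGD, 911, 886 and 856 RPKM with anti-PD-1, and 778, 813 and 749 RPKM with the combination. The combination samples lay under all others, the 7aaRGD and anti-PD-1 samples under all vehicle samples, and those 2 single treatments overlapped each other.

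With 7aaRGD alone, 63 of the 77 genes had lower means than in vehicle, with a median log2 fold change of −0.10 against 0.01 over all genes, but limma called none. Of all genes 0.647% were called in either direction. At an unadjusted p under 0.05 there were 17 of the 77, of which Mrps31 was higher and the others lower, and 1423 of all 9739 genes. In 15 genes every 7aaRGD sample lay below every vehicle sample, a pattern found in 4.06% of all genes. Mrps34, a small subunit protein found only in mitochondria, came nearest to the threshold, with a log2 fold change of −0.29 ± 0.06 (limma adjusted p = 0.054), followed by Mrpl2 (−0.21, limma adjusted p = 0.11) and Mrpl55 (−0.26, limma adjusted p = 0.11). With the length trend removed the median of the 77 genes was −0.05.

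Anti-PD-1 alone lowered 21 of the 77 genes and raised 1 at a limma adjusted p under 0.05, while 12.2% of all genes were called lower and 10.8% higher. The median log2 fold change was −0.09, against −0.01 over all genes. The 5 largest falls were Mrpl45 (−0.45), which tethers the large subunit to the inner membrane, Mrps34 (−0.44), Mrpl2 (−0.44), Mrpl23 (−0.43), which lies at the exit of the peptide tunnel, and Mrpl57 (−0.38). Mrpl45 stood at 14.3, 14, 16.4 and 14.6 RPKM in vehicle and at 10.04, 10.8 and 11 RPKM with anti-PD-1 (log2 fold change −0.45 ± 0.07, limma adjusted p = 0.0010). The groups did not overlap. The gene called higher was Mrpl33, at 1.76, 1.82, 2.40 and 1.80 RPKM in vehicle and at 3.05, 2.78 and 2.40 RPKM with anti-PD-1 (log2 fold change 0.35 ± 0.10, limma adjusted p = 0.029). Its highest vehicle sample lay just under the lowest treated one, and the call was lost in 7 of 21 alternative fits. By role, 10 of 30 conserved and 4 of 20 mitochondrion-specific large subunit genes and 4 of 16 conserved and 3 of 10 mitochondrion-specific small subunit genes were called lower.

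The combination lowered 44 of the 77 genes against vehicle and raised none at a limma adjusted p under 0.05, beside 25.8% of all genes called lower and 17.5% higher. In 45 of the 77 every combination sample lay below every vehicle sample, which held for 28.8% of all genes. The median log2 fold change was −0.23, against −0.05 over all genes, and the 77 genes ranged from −0.90 to 0.17. The calls were spread over both subunits, with 18 of 30 conserved (median −0.25) and 12 of 20 mitochondrion-specific (median −0.25) large subunit genes, and 9 of 16 conserved and 5 of 10 mitochondrion-specific small subunit genes (median −0.21 in each). Mrps36 was not called. In all, 21 genes were called in every alternative fit, 1 of which drops genes under a mean of 5 RPKM.

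Mrps34 fell most. It stood at 18.4, 17.8, 18.5 and 17.6 RPKM in vehicle, at 15.8, 14.8, 14.4 and 13.7 RPKM with 7aaRGD, at 13.0, 12.9 and 13.3 RPKM with anti-PD-1 and at 8.53, 10.3 and 8.98 RPKM with the combination (log2 fold change against vehicle −0.90 ± 0.07, limma adjusted p = 1.1e-06). None of the 4 groups overlapped another. Mrpl23 (4.79, 4.94, 4.66 and 4.88 RPKM in vehicle) was at 2.44, 2.53 and 2.49 RPKM with the combination (−0.74 ± 0.06, limma adjusted p = 3.2e-06). Mrpl2, a protein of the peptidyl transferase centre, went from 37.2, 38.6, 37.2 and 39.1 RPKM to 24.0, 22.0 and 22.3 RPKM (−0.72 ± 0.06, limma adjusted p = 2.2e-06). Both genes were far apart between these groups, with samples that varied little within a group. Mrps9, a conserved small subunit protein, fell from a mean of 7.19 to 4.06 RPKM (−0.69 ± 0.07, limma adjusted p = 6.8e-06) and Mrpl57 from 8.17 to 4.85 RPKM (−0.65 ± 0.07, limma adjusted p = 1.3e-05), neither with overlap. The plot of single samples shows the same order of group means for all 5 genes, vehicle, 7aaRGD, anti-PD-1 and combination.

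**Figure D3:**
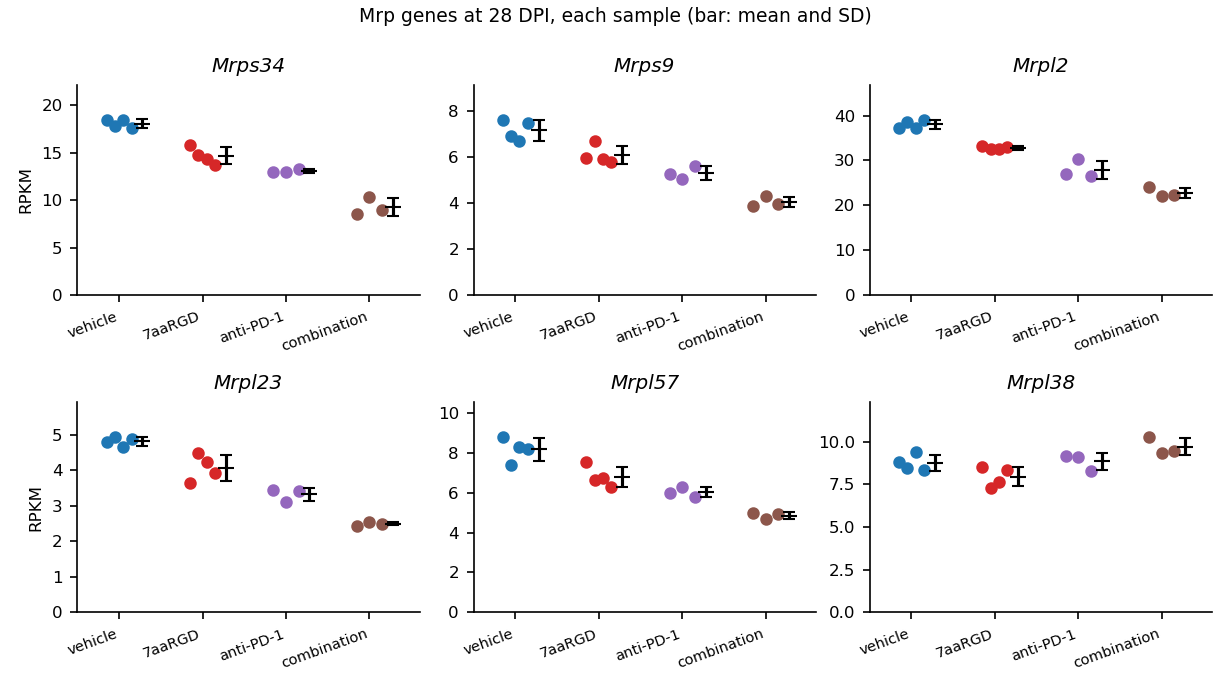
RPKM of 6 genes in each of the 14 samples of 28 DPI, by group, with the mean and SD as bars and axes from 0. Mrps34, Mrps9, Mrpl2, Mrpl23 and Mrpl57 are highest in vehicle and lowest with the combination, and Mrpl38 lies at 9.36 to 10.3 RPKM with the combination and at 7.29 to 8.51 RPKM with 7aaRGD.

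**Figure D4:**
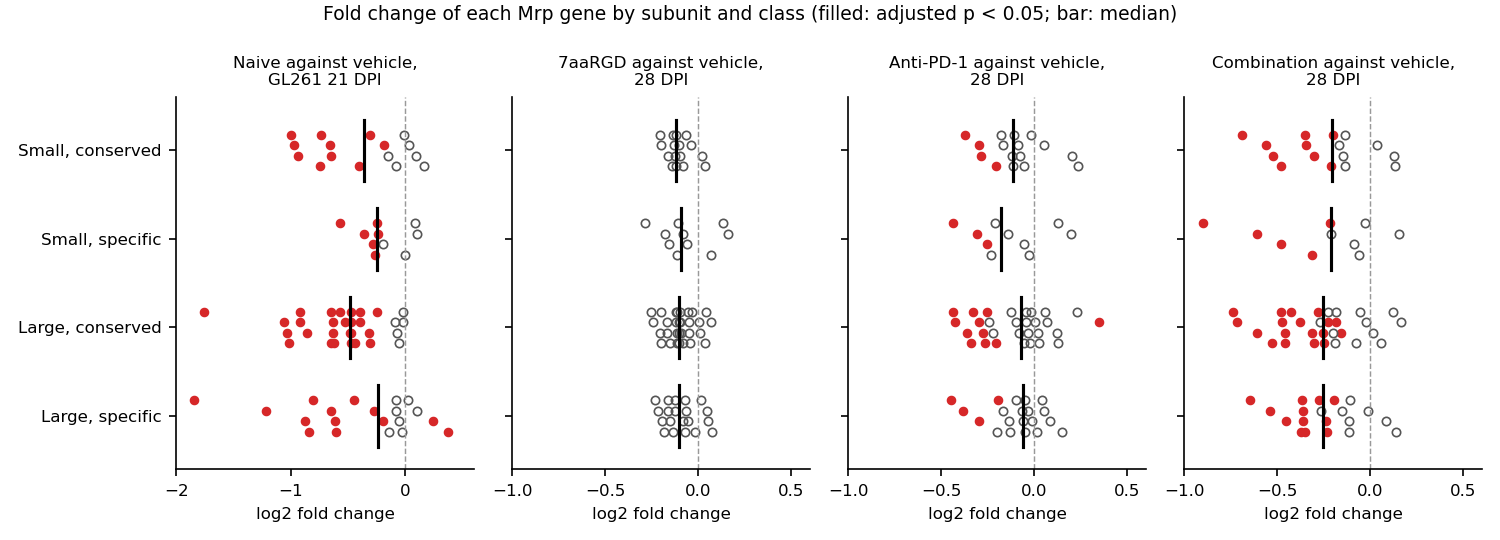
Log2 fold change of 76 genes (Mrps36 left out) in 4 comparisons with vehicle, by subunit and by whether the protein is conserved or specific to mitochondria. Filled points have a limma adjusted p under 0.05 and bars are medians. In the combination comparison the medians of the large subunit classes lie at −0.25 and those of the small subunit classes at −0.21.

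Against each single treatment the combination gave unequal numbers of calls. Compared with 7aaRGD alone, 33 of the 77 genes were called lower and 1 higher by limma, beside 23.5% and 13.0% of all genes, with a median log2 fold change of −0.17 against −0.07 over all genes. Mrps34 (−0.61), Mrpl23 (−0.54), Mrpl2 (−0.51), Mrps9 (−0.49) and Mrpl16 (−0.48) fell most. The count of calls was 21 without combination replicate 3. Mrpl38, a large subunit protein found only in mitochondria, was the gene called higher, at 10.3, 9.36 and 9.45 RPKM against 8.51, 7.29, 7.64 and 8.35 RPKM with 7aaRGD (0.26 ± 0.07, limma adjusted p = 0.010). Compared with anti-PD-1 alone, limma called only Mrps34 lower (−0.46 ± 0.07, adjusted p = 0.0498) and none higher, beside 0.0205% of all genes in each direction. That call was lost in 18 of 22 alternative fits. The combination was nevertheless lower in the mean of 70 of the 77 genes, with a median of −0.16 against −0.04 over all genes, and in 34 genes the samples did not overlap, as in 15.3% of all genes. The interaction of 7aaRGD and anti-PD-1, that is, the difference of the combination from the sum of both single changes, was called by limma in none of the 77 genes and in 0% of all genes, with 11 of the 77 and 794 of all 9739 genes at an unadjusted p under 0.05. Its median was −0.06, the same as over all genes. Mrpl16 (−0.28), Mrpl22 (−0.25) and Mrpl38 (0.24) had the lowest p, each with a limma adjusted p of 0.59.

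Genes with and without the motifs shown above were both among the lower calls. With the combination 12 of 25 genes that hold the ETS letters were called lower (median log2 fold change −0.20) and 27 of 43 that do not (−0.28), 9 of 21 with the YY1 letters (−0.21) and 30 of 47 without (−0.24), and 5 of 8 with the NRF1 letters (−0.20) and 34 of 60 without (−0.23). Differences between these sets were not tested.

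Other ribosomal and mitochondrial genes were measured in the same combination samples. Cytosolic ribosomal protein genes fell further, with 77 of 79 called lower and a median log2 fold change of −0.70, and their medians with 7aaRGD and anti-PD-1 were −0.29 (42 called, and 0 under TMM scaling) and −0.48 (76 called). Of 77 nuclear respiratory chain genes 45 were called lower (median −0.26), or 25 lower and 8 higher with the length trend removed. Lower calls were also made for 5 of 8 genes of mitochondrial DNA (median −0.60), among them mt-Nd6 (80.7 against 167 RPKM in vehicle) and mt-Co1 (2904 against 4973 RPKM). In the lists of the machinery around the ribosome, the counts called lower are to be read beside the 25.8% of all genes called lower. Of 16 translation factors 3 were called lower, including Oxa1l, which inserts mitochondrially made proteins into the membrane (12.8 against 21.8 RPKM), and 3 higher, including Gatb (3.91 against 2.76 RPKM), and the split was 2 lower and 5 higher under TMM scaling. Of 22 assembly genes 6 were called lower and none higher, with Rbfa, a ribosome binding factor, at 25.7 against 46.2 RPKM and Noa1, a GTPase of small subunit assembly, at 4.11 against 7.92 RPKM. Of 16 tRNA synthetases 5 were called lower and 1 higher. None of the 10 tested regulators of mitochondrial biogenesis was called. Ppargc1b had the lowest p of them, at 3.72 against 5.55 RPKM (log2 fold change −0.51 ± 0.23, limma adjusted p = 0.087). Nrf1 stood at 2.63 against 2.99 RPKM and Gabpa at 8.63 against 8.75 RPKM. Aurkaip1 (23.3 against 32.5 RPKM) and Gadd45gip1, mitochondrial ribosomal proteins under other names, were called lower.

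Exonic length moved with the combination comparison as well, though less than in naïve mice. The medians of the other genes ran from −0.20 in the bin of 1000 to 1500 bases to 0.01 above 6000 bases, and the 77 genes lay lower in all 7 bins, from −0.28 to −0.19. Above 6000 bases 6 of 12 mitochondrial ribosomal protein genes were called lower, against 17.7% of 3039 others, and up to 1000 bases 4 of 8, against 33.2% of 211. After removal of the length trend, 34 of the 77 genes were called lower and 5 higher, against 20.3% of all genes lower, and the median was −0.15. The share of all genes called higher in that fit is not given. The same correction gave 17 lower and 3 higher for anti-PD-1 and 23 lower and 4 higher for the combination against 7aaRGD. For these 2 comparisons no corrected shares of all genes are given, so the counts cannot be set against a background. Markers of other cells were also compared at 28 DPI. The summed level of 6 dendritic cell markers was 1.00 to 2.86 RPKM in vehicle, 4.04 to 17.4 RPKM with anti-PD-1 and 12.4 to 16.6 RPKM with the combination, with Xcr1 near 0 throughout and both markers that could be tested called higher in each. Of 8 homeostatic microglia markers 5 were called higher with the combination (2281 to 2431 RPKM against 1533 to 2167 RPKM in vehicle) and of 8 monocyte and macrophage markers 4 (1302 to 1727 RPKM against 1251 to 1724 RPKM). Among all genes 17.5% were called higher in this comparison. Of 8 cycling cell markers 2 were called lower (57.4 to 70.1 RPKM against 64.3 to 81.2 RPKM), near the 25.8% of all genes called lower. The summed levels of the monocyte and macrophage and of the cycling cell markers overlapped between the groups. The part of these cells in the lower levels was not tested.

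**Figure D5:**
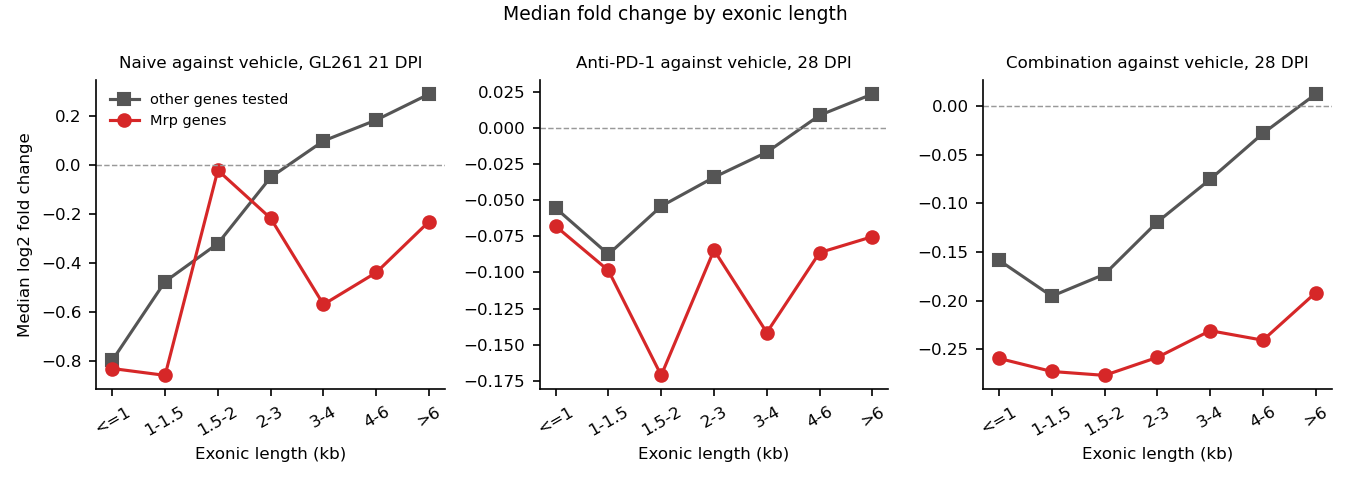
Median log2 fold change by exonic length (kilobases) for the mitochondrial ribosomal protein genes and for all other genes tested, in 3 comparisons with vehicle. The medians of the other genes rise with length over all bins in naïve mice and from the second bin on with anti-PD-1 and the combination, and in the combination comparison the mitochondrial ribosomal protein genes lie between −0.28 and −0.19 in all bins, under the others.

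Most of the 77 genes varied together across the 14 samples of 28 DPI. The Pearson r between a gene's log2 level and the mean of the other 76 had a median of 0.72 and exceeded 0.5 in 55 genes, highest in Mrpl12 (0.92), a protein of the ribosomal stalk. It was below 0 in 5, Mrps15, Mrpl24, Mrps21, Mrpl33 and Mrpl38, the lowest being Mrpl38 (−0.37). Among 9662 other genes the median r with the mean of the 77 was 0.21. The genes whose levels followed the mean most closely were Aprt, the adenine salvage enzyme (r = 0.96), Tmem14c, a mitochondrial membrane protein of heme synthesis (0.96), Ndufa12 of respiratory complex I (0.95), Polr2f, a subunit shared by the nuclear RNA polymerases (0.95), and Eif2s2, a subunit of the initiation factor eIF2 (0.95). Aprt, for example, averaged 63.8 RPKM in vehicle, 53.8 with 7aaRGD, 53.8 with anti-PD-1 and 37.7 with the combination. These correlations are over samples that share group differences and are given as descriptions.

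In U87-MG gliomas no change was detectable in a fit without a term for the order of columns within a group. Summed levels were 684, 758 and 739 RPKM in vehicle, 679, 687 and 672 RPKM with 7aaRGD and 699, 631 and 707 RPKM with 7aaRAE, with overlap between all groups. Limma called none of the 77 genes for 7aaRGD against vehicle (0% of all genes), for 7aaRAE against vehicle (0.0103% of all genes) or for 7aaRGD against 7aaRAE (0% of all genes), with 3, 5 and 1 genes at an unadjusted p under 0.05, beside 365, 746 and 326 of all 9667 genes. The medians were −0.06, −0.06 and −0.02. Both peptides share the vehicle samples. All samples lay below all vehicle samples in 11 genes with 7aaRGD (6.39% of all genes) and in 9 with 7aaRAE (9.45% of all genes). Mrpl14, a conserved large subunit protein, was at 16.7, 18 and 14.4 RPKM in vehicle, 12.9, 13.0 and 12.8 RPKM with 7aaRGD and 13.1, 10.9 and 12.7 RPKM with 7aaRAE (log2 fold changes −0.32 and −0.39, limma adjusted p = 0.94 and 0.34). Both peptide groups lay under vehicle, within a spread that the test over all genes did not separate. Mrpl42 (−0.23) and Mrps7 (−0.15) followed for 7aaRGD. For 7aaRAE, Mrpl24 (−0.33) had the lowest p and Mrpl34 (−0.42) the third lowest. Mrpl24 (0.27), Mrpl34 (0.26) and Mrpl2 (−0.15) had the lowest p between the peptides.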

How the data were processed

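Strand-specific poly-A libraries of sorted CD11b+ cells were trimmed with Trimmomatic and aligned to mm10 with STAR, and reads were counted per gene with HTSeq 0.11.1, per the labels and the study's methods. The authors deposited 1 table per experiment, each normalized separately. The unit of these deposited values was inferred to be RPKM with a constant of 2 added, since genes without reads sit at exactly 2, and the constant was subtracted. Counts are not held in the tables, so that depth is unknown and no interval for counting error could be given. All per-sample columns were mapped (0 were not).

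Values of the protein-coding genes that averaged 1 RPKM or more were transformed to log2(RPKM + 1), and linear models were fitted in R 4.3.3 using limma 3.58.1, over all tumor-bearing groups of a table, or over the naïve and vehicle groups alone. Benjamini-Hochberg adjustment covered all genes tested, and genes with an adjusted p under 0.05 are called. Shares of all genes called are from this fit unless the length correction is named beside them. Fold changes are on the log2(RPKM + 1) scale, which understates those of low genes. The length correction removed a lowess trend of each sample's deviation from the gene mean over log2 exonic length. The fit was tested on simulated data. Tables were otherwise handled in Python 3.11.15 with pandas 2.3.3, numpy 2.4.6 and matplotlib 3.10.9. In the U87-MG table header names were repeated and replicate numbers are names only. In the GL261 tables, same-numbered samples were compared by their deviations from the group means. The correlation passed 0.1 for 1 pair among 18 (21 DPI) and for 3 among 19 (28 DPI). Some others were negative. The lowest at 21 DPI was −0.77, between vehicle 1 and integrin-blocking peptide 1. The lowest at 28 DPI was −0.50, between integrin-blocking peptide 1 and anti-PD-1 sample 1. Differently numbered samples were not compared, and 1 component of the spread is missing from these tables. The check therefore cannot decide whether the numbers pair the samples.

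Alternatives were a pseudocount of 0.1, no filter, a filter of 5 RPKM, TMM factors, removal of the length trend, only the groups compared, a replicate block and each sample left out. Chosen after seeing the data were 1 fewer residual degree of freedom in the GL261 tables and, for U87-MG, leaving out the third column of each group. Named genes are, for each comparison, the 5 with the largest rise and fall past the threshold or otherwise the 3 with the lowest p, with the 5 highest and 3 lowest levels in a table, values that stand apart in groups of 4, up to 3 genes per other list by p, and the 5 nearest patterns. Other genes named were chosen after their values were seen. The genes and lists were chosen with earlier results of these data known. The lymphocyte marker list is not reported here.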

Additional observations from a re-analysis of the deposited data

Results flagged for a closer look

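Among 154 pairs of a gene and a 28 DPI group of 4 samples, 7 held a sample farther from the others than Dixon's critical value allows. Chance alone gives this in about 1 of 20 such pairs, so 7 of 154 is near the share that chance gives. Of these, 6 were in vehicle. Mrpl1 stood at 2.42 RPKM in 1 vehicle sample and at 3.44, 3.50 and 3.53 RPKM in the others, and Mrpl54 at 32.7 RPKM against 39.8, 39.7 and 41.2 RPKM. A high vehicle sample was found for Mrpl12 (35.6 RPKM, others 33.0, 32.8 and 33.2), Mrpl33 (2.40 RPKM, others 1.76, 1.82 and 1.80), Mrps21 (45.4 RPKM, others 35.8, 34.7 and 36.3) and Mrps31 (4.35 RPKM, others 3.44, 3.58 and 3.45). With 7aaRGD, Mrpl15 stood at 2.76 RPKM in 1 sample and at 3.73, 3.72 and 3.67 RPKM in the others.

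In 3 genes every sample of the peptide named below lay above every vehicle sample in GL261 gliomas of 21 DPI. In U87-MG gliomas every sample of that peptide lay below every vehicle sample. The share of all genes with this pattern is not given, so these 3 genes cannot be called unusual. Mrps21 had a log2 fold change of 0.11 with 7aaRGD in GL261 gliomas and of −0.14 in U87-MG gliomas, and Mrps25 of 0.034 and −0.12. Mrpl24 had a log2 fold change of 0.089 with 7aaRAE in GL261 gliomas and of −0.33 in U87-MG gliomas. None of these 6 changes passed the limma threshold, and the differences between the models were not tested.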

How the results depend on the processing

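Counts of called genes among the 77 are given here for the alternatives, both directions together and without the share of all genes called. For the combination against vehicle the count was 44, and 38 under TMM factors. It was 39 with the length trend removed and 33 with a filter of 5 RPKM, which drops low genes. With 7aaRGD at 28 DPI the count was 0, and 1 with a filter of 5 RPKM (Mrps34, log2 fold change −0.29, limma adjusted p = 0.034). For the combination against anti-PD-1 the count went from 1 to 0 under TMM factors, with the length trend removed, with only the groups compared, under the replicate block and with 1 fewer residual degree of freedom. Leaving out single samples gave 53 to 55 calls for naïve mice, 16 to 23 for anti-PD-1, 32 to 45 for the combination, 0 to 1 for the combination against anti-PD-1, 21 to 34 for the combination against 7aaRGD, and 0 to 0 in the other comparisons. In the fit with the replicate block, the counts were 54 for naïve mice, 18 for anti-PD-1, 35 for the combination and 29 for the combination against 7aaRGD, and pairing by number changed no count by over 1.5 times other than the one given above. For the U87-MG table alone no such fit could be made, because its columns carry no replicate numbers. Of the named genes' called values, 456 stayed past the threshold under an alternative and 26 did not, with none reversed, and the cause was not tested. Depth is unknown, so small changes in low genes such as Mrps10 may have been missed.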
